A study of Mus musculus with 12 samples.

Results

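Oocyte transcription factors were examined as 9 genes, Nobox, Figla, Lhx8, Sohlh1, Sohlh2, Taf4b, Tbpl2, Sall4 and Pou5f1, taken by symbol from the 24562 genes in the count table. RNA-Seq had been performed on 12 pools of oocytes from unstimulated CD-1 mice, 3 pools in each of 4 cohorts. PND stands for postnatal day, and the cohorts were PND 13, PND 40 and, at PND 16, a small and a large cohort divided by body weight. All pools held 18 to 45 germinal vesicle stage oocytes from antral follicles, freed of cumulus cells and kept in medium with milrinone, which holds oocytes in meiotic arrest. The study classed PND 16 large and PND 40 oocytes as meiotically competent and PND 13 and PND 16 small oocytes as non-competent. Because each library is a pool, differences between single oocytes were not measured.

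These genes encode the regulators that establish and maintain the oocyte's own transcription program. SOHLH1 and SOHLH2 are basic helix-loop-helix proteins that act early in follicle formation, and LHX8, NOBOX and FIGLA are needed for primordial follicles to form or to begin growth. FIGLA drives the zona pellucida genes, and NOBOX binds the promoters of oocyte genes such as Gdf9 and Pou5f1. TAF4B is a gonad-enriched subunit of TFIID, and TBPL2 (also TRF3) takes the place of the TATA-binding protein in growing oocytes. SALL4 is a zinc finger protein of germ cells and stem cells, and POU5F1 is OCT4.

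Total counts ranged from 17671193 to 27418358 per pool, and all 9 genes were among the 13943 that passed the filter on low counts. Expression is given as CPM, which relates a gene's count to the pool's total after scaling by TMM (trimmed mean of M-values). A summed level of 11 oocyte markers, Zp1, Zp2, Zp3, Gdf9 and Bmp15 among them, lay between 15280 and 20150 CPM in every pool. Transcripts of granulosa and cumulus cells were also present: 13 markers summed to 483 and 554 CPM in PND 13 replicates 1 and 3 and to 521 CPM in PND 16 small replicate 2, compared with 131 to 258 CPM in the other 9 pools. No marker of that list was at 0 in all pools of a cohort. The largest part of the lower sums came from 1 marker, Nr5a2, which never fell under 87.88 CPM in any pool. In PND 16 large its mean was 93.45 CPM, next to sums of 194.2 to 209.5 CPM. Within PND 13, Inha ranged from 2.34 to 143 CPM and Gja1 from 1.37 to 109 CPM. Cyp19a1 (12.7 to 21.5 CPM) and Kitl (20.8 to 36.7 CPM) varied less there. Ratios between the sums therefore need not equal ratios of granulosa RNA. Markers of theca and stroma (10 genes, 8.04 to 49.6 CPM) and of blood and endothelium (6 genes, 53.1 to 65.1 CPM) had lower sums. All tests were repeated without the 3 pools with the highest granulosa sums. This leaves PND 13 as 1 pool whose spread is assumed to be that of the other cohorts. They were also repeated without PND 13 replicate 2 and PND 16 small replicate 1, which had the lowest sums of their cohorts.

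Measured as CPM per kilobase of exon, over the union of a gene's annotated exons, the 9 factors spanned from near the top to near the bottom of the oocyte transcriptome. Nobox had 167 ± 16.1 and Sall4 154 ± 12.9 CPM per kb (SD, n = 12 pools), higher than 98.9% and 98.8% of the 13747 genes tested that have an annotated length. Their ranges over pools overlapped, from 147 to 201 and from 129 to 177 CPM per kb, so their order is not resolved. Lhx8 followed at 80.6 ± 5.70 and Pou5f1 at 38.7 ± 5.72 CPM per kb, and no pool of either gene reached the range of its neighbours. Taf4b (15.0 ± 3.42), Tbpl2 (13.7 ± 5.05) and Figla (11.3 ± 2.54 CPM per kb) formed a group with overlapping ranges. Sohlh2 (2.06 ± 1.14) and Sohlh1 (0.359 ± 0.359 CPM per kb) were lowest, at the 40.3 and 16.7 percentile of genes, and their ranges met only at the edge (lowest Sohlh2 pool 1.162, highest Sohlh1 pool 1.197 CPM per kb). The spread over the 12 pools ran in a different order, with a coefficient of variation of 7.07% for Lhx8, 8.33% for Sall4 and 9.60% for Nobox, but 36.8% for Tbpl2, 55.2% for Sohlh2 and 100% for Sohlh1.

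**Figure D1:**
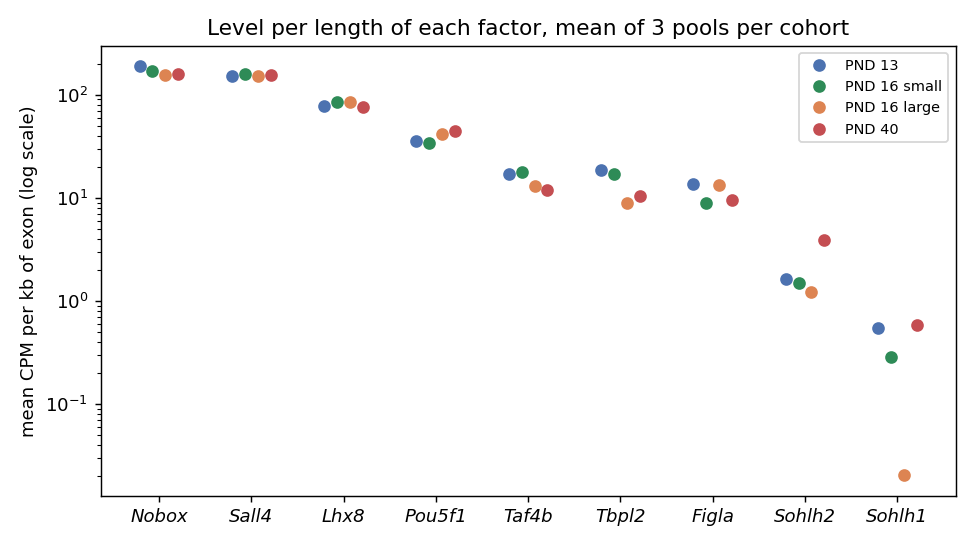
Mean CPM per kb of exon (log scale) of each factor, 1 point per cohort (mean of 3 pools), ordered by the mean over all 12 pools. Nobox and Sall4 lead, and the cohorts lie furthest apart for Sohlh1, whose PND 16 large mean is 0.0205 CPM per kb.

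Of 63 tests, 9 genes in 7 comparisons, 12 passed the study's criteria, here termed called: adjusted p no higher than 0.05 with a difference of 1.5-fold or more. They belonged to 4 genes, Sohlh1, Sohlh2, Taf4b and Tbpl2. Another 9 tests passed the adjusted p with a smaller difference, and 5 genes, Nobox, Figla, Lhx8, Sall4 and Pou5f1, were never called. PND 40 vs. PND 13 called 2 of the 9 genes (Sohlh2 higher, Tbpl2 lower), where 18.9% of all genes tested were called. PND 40 vs. PND 16 small called 3 (Sohlh2 higher, Taf4b and Tbpl2 lower; background 17.2%). PND 16 large vs. PND 13 and PND 16 large vs. PND 16 small each called Sohlh1 and Tbpl2, both lower in PND 16 large, against backgrounds of 13.3% and 6.19%. PND 40 vs. PND 16 large called Sohlh1 and Sohlh2, both higher at PND 40 (background 3.66%). Sohlh1 had 0 or 1 read in each PND 16 large pool and passed the filter on low counts only through the other cohorts. Its calls against PND 16 large are therefore not to be compared with these shares. PND 16 small vs. PND 13 called none of the 9 genes with edgeR and Figla with DESeq2. There, 1 gene, Figla, had an unadjusted p under 0.05, and 0.373% of all genes were called. Competent vs. non-competent oocytes called Tbpl2 alone (background 15.0%). The median log2 fold change of the 9 genes in competent vs. non-competent oocytes was -0.01, and that of all genes 0.00. The comparisons share pools and are not independent, and the results below concern single genes.

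**Figure D2:**
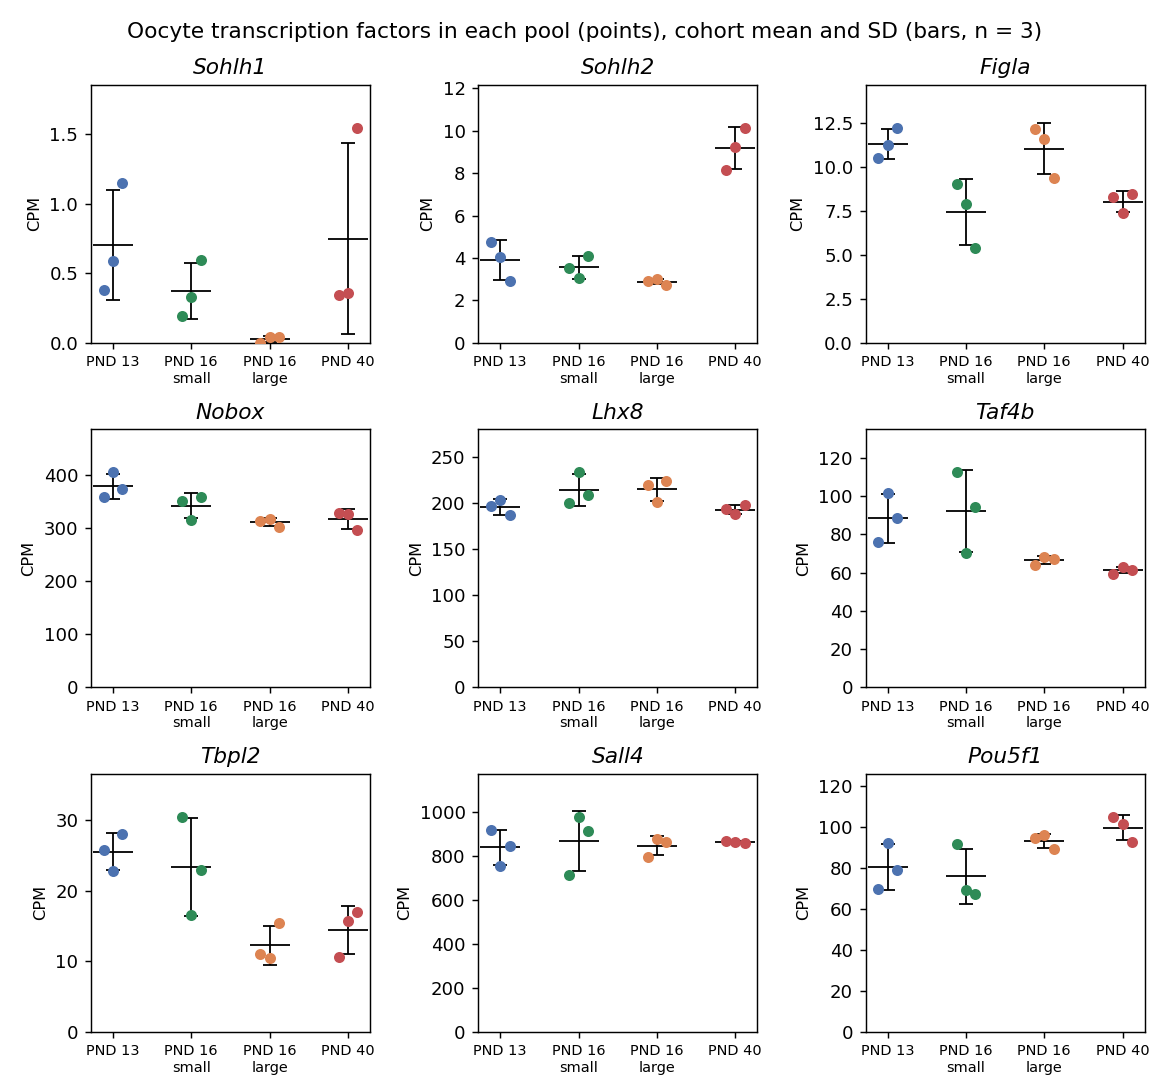
CPM of each factor in every pool (points) with the cohort mean and SD (bars, n = 3), each panel on its own axis from 0. Sohlh2 stands out at PND 40, where its 3 pools lie between 8.15 and 10.1 CPM, and Tbpl2 and Taf4b are lower in PND 16 large and PND 40 pools.

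Sohlh2, on chromosome 3 from 55182028 to 55209957 (plus strand, GRCm38, with 11 exonic segments), differed between the competent cohorts. The sequence before its start site is shown because PND 40 stood apart from every younger cohort. The 3 windows printed here and below are the 250 bases before the RefSeq start site (GRCm38.p6), written 5′ to 3′ along the gene, and capitals mark the E-box CANNTG, the element that basic helix-loop-helix proteins bind.
Sohlh2, chr3:55181794-55182043, plus strand: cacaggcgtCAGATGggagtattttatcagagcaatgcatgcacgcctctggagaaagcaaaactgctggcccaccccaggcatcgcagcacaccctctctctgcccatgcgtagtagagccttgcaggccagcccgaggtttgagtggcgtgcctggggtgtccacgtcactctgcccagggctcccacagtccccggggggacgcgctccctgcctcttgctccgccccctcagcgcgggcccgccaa
The window holds 1 E-box, as do 66.2% of 32851 windows of this length at annotated start sites (at least 1).

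Sohlh2 was measured at 4.78, 4.03 and 2.91 CPM in the PND 13 pools and at 3.55, 3.03 and 4.09 CPM in the PND 16 small pools. The PND 16 large pools had 2.91, 3.00 and 2.75 CPM and the PND 40 pools 8.15, 9.24 and 10.1 CPM. Every PND 40 pool was above every younger pool, and the PND 16 large pools lay narrowly below all PND 16 small pools. The level was 3.18-fold higher at PND 40 than in PND 16 large (log2 fold change 1.67, standard error 0.237, adjusted p = 0.00193). It was 2.35-fold higher than at PND 13 (log2 1.23, standard error 0.234, adjusted p = 0.00150) and 2.58-fold higher than in PND 16 small (log2 1.37, standard error 0.236, adjusted p = 0.000943). These 3 calls held in every alternative fit and without any single pool. Among the 3 younger cohorts no difference was called, and PND 16 large vs. PND 13 had a log2 fold change of -0.43 with a 95% interval of -0.94 to 0.07. Competent vs. non-competent oocytes, which joins PND 40 with PND 16 large, gave log2 0.69 (standard error 0.343, adjusted p = 0.139). In pooled oocytes, a larger share of each oocyte's RNA and more expressing oocytes cannot be told apart. Of 8 theca and stroma markers tested, 1, Cyp11a1, was called higher at PND 40 vs. PND 13 (log2 0.96, adjusted p = 0.0194), and none was called lower. The median log2 fold change of the 8 markers there was -0.40. Against PND 16 small, Cyp11a1 was also called higher (log2 1.55, adjusted p = 0.00160) and Acta2 lower (log2 -2.32, adjusted p = 0.0324), with a median of -1.22. Against PND 16 large, 1 of the 8 was called higher and none lower, with a median of -1.41. The part of other cells in the Sohlh2 values was not tested.

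Sohlh1, which encodes the partner of SOHLH2, is on chromosome 2 from 25842995 to 25847248 (minus strand) and was close to the detection limit. Its window is shown for comparison with that of its partner.
Sohlh1, chr2:25847249-25847498, minus strand: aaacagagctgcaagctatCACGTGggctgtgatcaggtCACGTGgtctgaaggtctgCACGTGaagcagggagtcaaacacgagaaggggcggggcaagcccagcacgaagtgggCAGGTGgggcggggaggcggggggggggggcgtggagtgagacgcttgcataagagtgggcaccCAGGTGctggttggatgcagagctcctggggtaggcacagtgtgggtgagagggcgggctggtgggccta
It holds 5 E-boxes, a number reached by 1.15% of all windows.

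The Sohlh1 counts were 8, 15 and 28 reads at PND 13, 4, 7 and 10 in PND 16 small, 0, 1 and 1 in PND 16 large, and 8, 9 and 42 at PND 40. PND 16 large pools were therefore below all others, while PND 40 replicate 3, with 1.54 CPM, was far above replicates 1 and 2 (0.343 and 0.358 CPM). With 51 reads at PND 13 and 2 in PND 16 large, the ratio of rates was 26.9, with an exact 95% interval of 7.08 to 228 that covers counting error only. For 59 reads at PND 40 it was 29.2 (7.74 to 247), and for 21 reads in PND 16 small it was 13.4 (3.28 to 118). The quasi-likelihood test gave adjusted p = 0.00820, 0.0215 and 0.0492 for these 3 differences. The call against PND 16 small was kept without PND 16 small replicate 1 or PND 40 replicate 3, and lost in the 10 other fits without 1 pool (adjusted p from 0.0565 to 0.171). The call against PND 40 was lost with each of the PND 16 large pools left out in turn (adjusted p from 0.0709 to 0.0875) and without PND 40 replicate 3 (0.115). Without the 3 pools with high granulosa sums PND 16 large had an adjusted p of 0.0726 vs. the 1 remaining PND 13 pool and of 0.0769 vs. PND 16 small. Unlike Sohlh2, Sohlh1 had no called difference between PND 13 (0.705 ± 0.396 CPM) and PND 40 (0.748 ± 0.689 CPM, log2 fold change 0.09, 95% interval -1.57 to 1.75).

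Tbpl2 was the gene called in the most comparisons, 5 of 7, and it was lower in competent oocytes in all of them. It lies on chromosome 2 from 24071721 to 24096595 (minus strand), and its window is shown because it was the gene called between competent and non-competent oocytes.
Tbpl2, chr2:24096596-24096845, minus strand: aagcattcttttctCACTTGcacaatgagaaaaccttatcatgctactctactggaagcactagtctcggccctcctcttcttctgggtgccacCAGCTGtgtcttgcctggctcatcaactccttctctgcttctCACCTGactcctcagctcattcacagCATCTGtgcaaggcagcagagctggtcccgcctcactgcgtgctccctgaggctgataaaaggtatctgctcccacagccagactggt
The window holds 4 E-boxes, a number reached by 3.84% of windows. The table held 8 windows for 7 of the 9 genes, and windows of 6 of these genes hold an E-box. Searched on both strands, TATAAA was in none of the 8 windows and in 12.4% of all windows. The homeobox motif TAATTG was likewise in none, and in 7.17% of all. So was TAATTA, found in 4.84% of all, and TGATTG, found in 12.7%. No match says only that these letters are not in the window.

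Tbpl2 stood at 25.8, 22.9 and 28.0 CPM in the PND 13 pools and at 30.5, 16.5 and 23.0 CPM in the PND 16 small pools. The PND 16 large pools had 10.96, 10.4 and 15.4 CPM, and the PND 40 pools 10.6, 15.7 and 17.0 CPM. All PND 13 pools were above all competent pools, and PND 16 small replicate 2 lay within the PND 40 range. Tbpl2 was 1.83-fold lower in competent oocytes (13.3 ± 2.98 vs. 24.4 ± 4.86 CPM, n = 6), or log2 -0.87 (standard error 0.166, adjusted p = 0.00139). This call held in every alternative fit and without any single pool. It was 2.09-fold lower in PND 16 large than at PND 13 (log2 -1.06, standard error 0.233, adjusted p = 0.00573) and 1.90-fold lower than in PND 16 small (log2 -0.93, standard error 0.233, adjusted p = 0.0227). PND 40 was 1.77-fold lower than PND 13 (adjusted p = 0.0153) and 1.61-fold lower than PND 16 small (adjusted p = 0.0379). Leaving out any 1 pool kept the first of these calls. The call vs. PND 16 small in PND 16 large was lost without PND 16 small replicate 1 or 3 or PND 16 large replicate 1 or 2 (adjusted p from 0.0551 to 0.109). That of PND 40 vs. PND 13 was lost without PND 13 replicate 3 (0.0584) or PND 40 replicate 1 (0.0710). That of PND 40 vs. PND 16 small was lost without PND 13 replicate 1, PND 16 small replicate 1 or 3, or PND 40 replicate 1 or 2 (from 0.0518 to 0.154). Without PND 13 replicates 1 and 3 and PND 16 small replicate 2, where PND 13 is 1 pool, the differences from PND 13 had adjusted p = 0.0735 for PND 16 large and 0.158 for PND 40. Without PND 13 replicate 2 and PND 16 small replicate 1, those from PND 16 small had adjusted p = 0.0578 and 0.138. The part of granulosa transcripts in these values was not tested. Between the competent cohorts the log2 fold change was 0.24, with a 95% interval of -0.26 to 0.74.

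Taf4b, on chromosome 18 from 14783245 to 14900359, encodes the other member that works in the basal transcription machinery, and it was also lower in competent oocytes, by less. The pools measured 75.85, 101.5 and 88.4 CPM at PND 13, 112.5, 70.2 and 94.3 CPM in PND 16 small, 64.1, 68.4 and 67.2 CPM in the PND 16 large pools and 59.4, 62.7 and 61.7 CPM at PND 40. All 6 competent pools were below all 6 non-competent pools, which was true of 1 of the 9 genes and of 7.81% of all genes tested. Counting either direction, the pools did not overlap for 14.7% of all genes. The spread was 3.40 CPM (SD) among competent and 15.8 CPM among non-competent pools. Competent oocytes were lower by a factor of 1.41 (log2 fold change -0.50, standard error 0.102, adjusted p = 0.00221), which passed the adjusted p and not the 1.5-fold criterion. PND 40 vs. PND 16 small was called, at 1.51-fold lower (log2 -0.59, standard error 0.144, adjusted p = 0.00773), and fell under 1.5-fold without PND 16 small replicate 1 (log2 -0.42), PND 16 small replicate 3 (log2 -0.58) or PND 40 replicate 1 (log2 -0.57). It was also under 1.5-fold with upper quartile scaling (log2 -0.58), total counts (log2 -0.56) and limma on the authors' log2 values (log2 -0.57). PND 40 vs. PND 13 was called without PND 13 replicate 1 (log2 -0.63), and PND 16 large vs. PND 16 small without PND 16 small replicate 2 (log2 -0.63). Without the 3 pools with high granulosa sums the competent vs. non-competent change was called (log2 -0.68, adjusted p = 0.000462), as was PND 16 large vs. PND 16 small (log2 -0.63). The non-competent group then holds 1 PND 13 pool, replicate 2, the highest of its cohort for Taf4b. Against that pool the log2 fold changes were -0.60 for PND 16 large and -0.73 for PND 40. Without PND 13 replicate 2 and PND 16 small replicate 1, PND 40 vs. PND 16 small was not called (log2 -0.42), and PND 16 large vs. PND 16 small had an adjusted p of 0.0979.

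**Figure D3:**
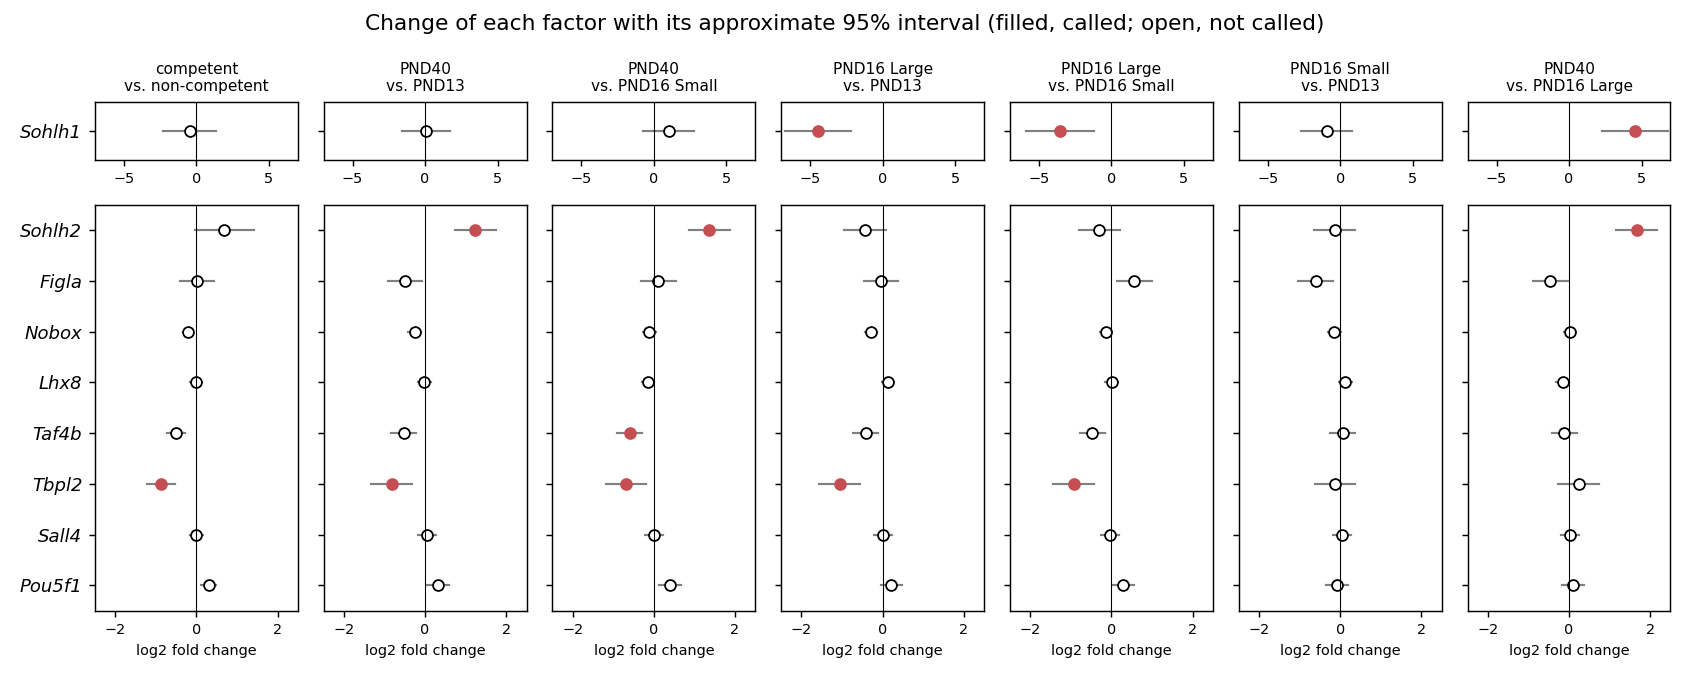
Log2 fold change of each factor (rows) in each of 7 comparisons (panels) with its approximate 95% interval, and a wider axis for Sohlh1 in the upper row. Filled points are called: Tbpl2 is left of 0 in 5 panels, Sohlh2 right of 0 in the 3 that compare PND 40 with a younger cohort, and intervals of Lhx8, Nobox and Sall4 are narrow.

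The homeobox genes Nobox (chromosome 6 from 43303674 to 43309554) and Lhx8 (chromosome 3 from 154306294 to 154330659) varied little. Nobox was at 358, 404 and 373 CPM at PND 13, 351, 315.5 and 359 CPM in PND 16 small, 313, 316 and 302.5 CPM in the PND 16 large pools and 328, 326 and 296 CPM at PND 40. The PND 13 pools were above all competent pools, with no call at 1.5-fold. Nobox was 1.15-fold lower in competent oocytes (log2 fold change -0.20, 95% interval -0.33 to -0.07, adjusted p = 0.0220), and 1.22-fold lower in PND 16 large than at PND 13 (adjusted p = 0.0119). Without PND 13 replicate 2 and PND 16 small replicate 1 the first had an adjusted p of 0.0613 (log2 -0.17). Lhx8 ranged from 186.5 to 203 CPM at PND 13, from 199 to 233 CPM in PND 16 small, from 201 to 224 CPM in the PND 16 large pools and from 187 to 197 CPM at PND 40. The PND 40 pools were below all PND 16 pools of either size. That difference was small, with log2 fold changes of -0.15 vs. each PND 16 cohort (adjusted p = 0.228 for large and 0.140 for small). The competent vs. non-competent interval for Lhx8 was -0.15 to 0.13 on the log2 scale, so a change of 1.5-fold lies outside it.

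Figla, on chromosome 6 from 86016171 to 86020996, did not order by age or by competence. Its pools had 10.5, 11.2 and 12.2 CPM at PND 13, 9.04, 7.92 and 5.40 CPM in PND 16 small, 12.2, 11.6 and 9.40 CPM in the PND 16 large pools and 8.32, 7.37 and 8.45 CPM at PND 40. PND 13 and PND 16 large pools were thus above all pools of the other cohorts, though PND 16 large replicate 3 only narrowly exceeded PND 16 small replicate 1. PND 16 small vs. PND 13 gave log2 -0.60 (standard error 0.198, adjusted p = 0.118), and PND 16 large vs. PND 16 small gave log2 0.57 (standard error 0.198, adjusted p = 0.0771). Both met the criteria without PND 13 replicate 2 and PND 16 small replicate 1 (log2 -0.79 and 0.73, adjusted p = 0.0431 and 0.0312). Leaving out PND 16 small replicate 1 alone also gave both calls (log2 -0.76 and 0.73, adjusted p = 0.0298 and 0.0367), and DESeq2 gave the first. PND 16 small replicate 3, the pool with the lowest Figla value, had the lowest total count of all pools, 17671193, and 91 Figla reads. Competent vs. non-competent oocytes had a log2 fold change of 0.02 (95% interval -0.39 to 0.44).

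Sall4 (chromosome 2 from 168748332 to 168767943) had the most counts of the 9 genes in every pool and the smallest differences between cohorts. Its cohort means were 839 ± 80.3 CPM at PND 13, 869 ± 136 CPM in PND 16 small, 846 ± 43.7 CPM in the PND 16 large pools and 864 ± 3.76 CPM at PND 40 (n = 3). In competent vs. non-competent oocytes its log2 fold change was 0.00 (95% interval -0.16 to 0.16). The spread differed between cohorts, from 861 to 868 CPM at PND 40 and from 716 to 978 CPM in PND 16 small. The lowest Sall4 values, 756 and 716 CPM, were in PND 13 replicate 2 and PND 16 small replicate 1. These were also the pools with the lowest granulosa sums of their cohorts, and the part of other cells in this was not tested.

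Pou5f1 (chromosome 17 from 35506018 to 35510772) went the other way in the same pools. It was at 69.8, 91.9 and 78.6 CPM at PND 13 and 91.35, 69.0 and 66.9 CPM in PND 16 small, so that PND 13 replicate 2 and PND 16 small replicate 1 were the highest of their cohorts. PND 16 large pools had 94.2, 95.8 and 89.0 CPM, and PND 40 pools 105, 101 and 92.5 CPM. All PND 40 pools were above all non-competent pools, while PND 16 large replicate 3 was not. Pou5f1 was 1.24-fold higher in competent oocytes (log2 fold change 0.30, 95% interval 0.11 to 0.49, adjusted p = 0.0188) and 1.31-fold higher at PND 40 than in PND 16 small (log2 0.39, adjusted p = 0.0281), below the 1.5-fold criterion. Without the 3 pools with high granulosa sums these had adjusted p = 0.200 (log2 0.21) and 0.0672 (log2 0.33). Without PND 13 replicate 2 and PND 16 small replicate 1, the differences of PND 40 and PND 16 large from PND 13 and of PND 16 large from PND 16 small also passed the adjusted p (log2 0.40, 0.31 and 0.46, adjusted p = 0.00327, 0.0175 and 0.00542). The part of granulosa transcripts in this was not tested. The table also lists 5 related Pou5f1-rs genes, whose mean over the 12 pools was at most 0.0736 CPM, but reads of near-identical copies may have been split or dropped in counting. Exons of Sall4 and Pou5f1 share 526 and 317 bases with annotated genes on the opposite strand, and whether counting used strand is not given in the sources used here.

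**Figure D4:**
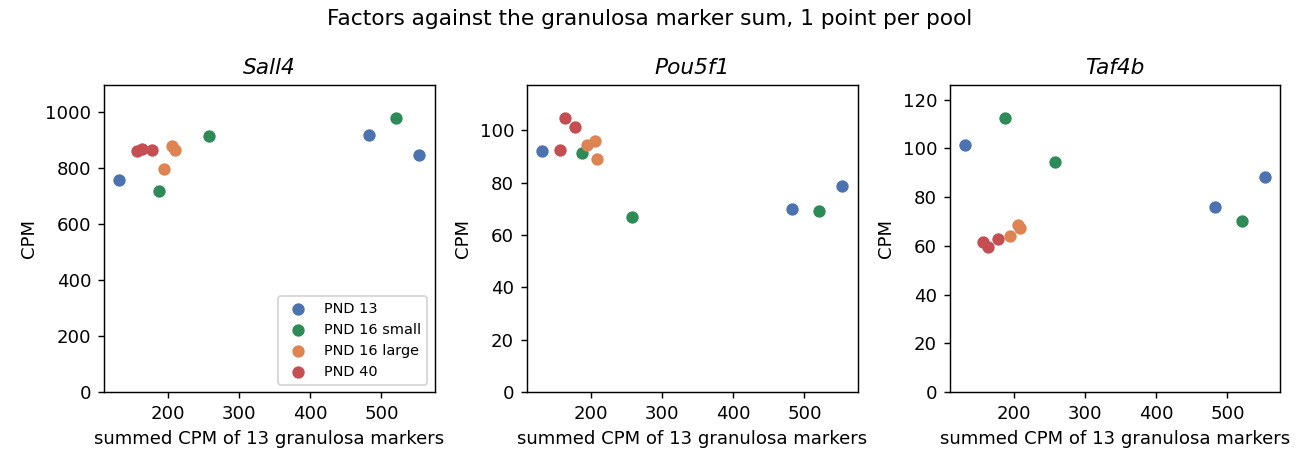
CPM of Sall4, Pou5f1 and Taf4b against the summed CPM of 13 granulosa and cumulus markers, 1 point per pool, with the cohort in colour. In the non-competent cohorts the pools with the lowest sums (131 CPM at PND 13 and 187 CPM in PND 16 small) have the lowest Sall4 and the highest Pou5f1 and Taf4b values.

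Genes that work with these factors were described by 4 lists. Among 10 partners in the basal machinery, 9 were tested and 1 was called in competent vs. non-competent oocytes, higher, compared with 3.78% of all genes higher and 11.2% lower. This was Gtf2a1, a TFIIA subunit, at 339 ± 14.5 vs. 217 ± 20.5 CPM (n = 6), which is log2 0.64 (standard error 0.0654, adjusted p = 2.57e-05). Tbpl2 fell, whereas Tbp, which encodes the TATA-binding protein itself, was at log2 0.23 (standard error 0.0581, adjusted p = 0.00866), not called. Gtf2a1l, which encodes the TFIIA-like partner found in germ cells, had a log2 fold change of -0.24 (adjusted p = 0.469), not called. Its competent pools ranged from 39.8 to 109.7 CPM and its non-competent pools from 73.6 to 98.4 CPM, so its change is not resolved. Taf4, the paralog of Taf4b, had a log2 fold change of 0.36 (adjusted p = 0.0106), also not called. The median of the 9 partners was 0.09, and that of all genes tested was 0.00.

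Of 10 other oocyte transcription factors, all tested, 1 was called and was lower, with a list median of -0.06. It was Yy1, a zinc finger protein needed for follicle growth, at 17.5 ± 4.78 vs. 37.6 ± 7.80 CPM (log2 -1.10, standard error 0.183, adjusted p = 0.000578). Of 19 genes that depend on FIGLA, NOBOX or the other members, 18 were tested and 1 was lower, with a median of 0.02. The gene left out was Zar1, whose symbol has more than 1 entry among the counts. The called gene is given next. Nlrp5, a maternal effect gene, was the gene called lower, at log2 -0.62 (standard error 0.129, adjusted p = 0.00251). Zp1, Zp2 and Zp3, the zona pellucida targets of FIGLA, had log2 fold changes of -0.28, -0.55 and -0.31 (adjusted p = 0.0189, 0.00296 and 0.0226), and none was called in this comparison. Zp2 was called lower at PND 40 vs. PND 13 (log2 -0.84, adjusted p = 3.87e-05) and vs. PND 16 small (log2 -0.85, adjusted p = 3.48e-05). Of the 18 genes, 3 were called in the first of these, all lower (background 18.9%). In the second, 2 were called higher and 2 lower (background 17.2%). Of 11 pluripotency factors and SALL paralogs, 7 were tested and 2 were lower in competent vs. non-competent oocytes, with a median of 0.05. Sall2 was 2.14-fold lower (log2 -1.10, standard error 0.139, adjusted p = 9.14e-05) and Esrrb 1.56-fold lower (adjusted p = 0.00306), next to the log2 fold change of 0.00 for Sall4. In PND 40 vs. PND 16 large no gene of these 4 lists was called in either direction. Of all genes, 2.34% were called higher there and 1.32% lower. Sohlh2 was called higher, and so was Sohlh1, which passed the filter on low counts only through cohorts other than PND 16 large.

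**Figure D5:**
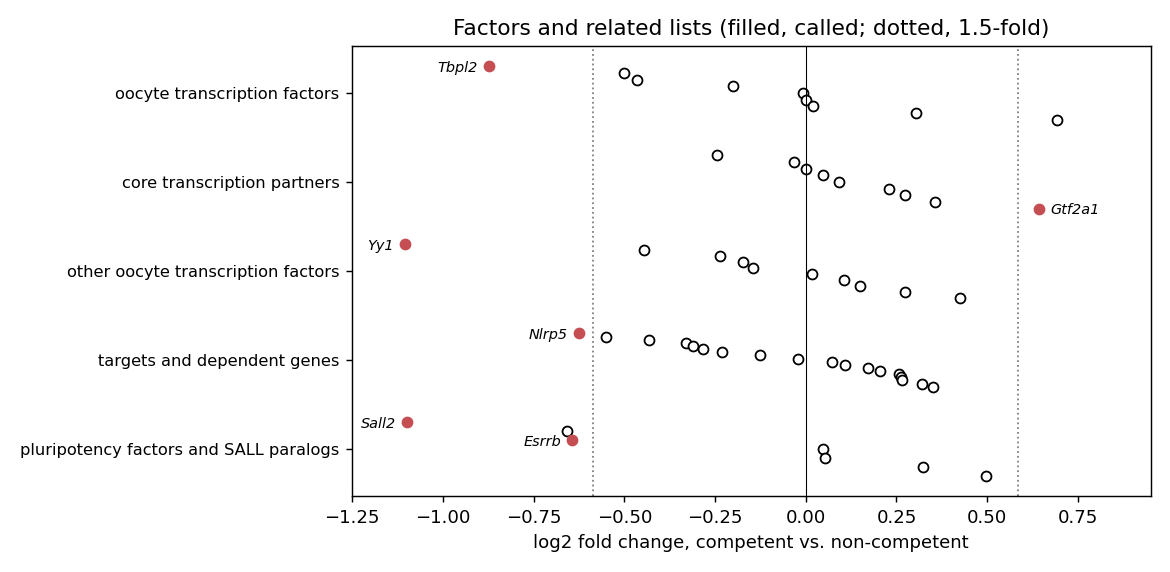
Log2 fold change in competent vs. non-competent oocytes of the 9 factors and of 4 related lists, 1 point per gene tested, with dotted lines at 1.5-fold. The called genes (filled, named) are Tbpl2, Gtf2a1, Yy1, Nlrp5, Sall2 and Esrrb, and Gtf2a1 is the 1 on the higher side.

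For each gene called in some comparison, the genes with the most similar pattern were found by the root mean square difference of centred log2 CPM over the 12 pools, among 11948 genes whose mean reached 1 CPM. For Taf4b these were Pag1 and Arhgef18, at differences of 0.0888 and 0.0960, compared with a median of 0.417 over all genes. The nearest genes lie under the median by selection, so the median gives scale only. Arhgef18 stood at 98.9, 108, 74.5 and 66.8 CPM on average at PND 13, in PND 16 small, in PND 16 large and at PND 40. For Tbpl2 they were Map1a and Sos1 (0.181 and 0.185, median 0.602), and Sos1 had means of 47.1, 48.9, 27.4 and 28.8 CPM in the same order. For Sohlh2 they were Ergic1 and Rnf31 (0.247 and 0.253, median 0.708), where Ergic1 had a mean of 24.7 ± 0.847 CPM at PND 40 compared with 8.30 ± 1.10 CPM in the PND 16 large pools. For Sohlh1 they were Igfbp3 and Cyp51, at 0.708 and 0.735, compared with a median of 1.29. Sohlh1 itself, with a mean of 0.463 CPM, lies under the limit of 1 CPM set for the genes searched.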

How the data were processed

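The authors depleted ribosomal RNA, made directional libraries and sequenced them on a HiSeq (50 bases). The submitters' processing notes name STAR, HTSeq, DESeq2 and mm10, without versions. The authors deposited raw counts for 24562 genes, and log2 values, each count divided by a pool's size factor, plus 1.

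Cohorts and replicate numbers came from the sample labels. Counts were analysed in R 4.3.3 with edgeR 4.0.16: genes kept by filterByExpr (minimum count 10), TMM scaling (factors 0.955 to 1.07) and robust quasi-likelihood tests, with Benjamini-Hochberg adjustment over all 13943 genes. The 4 cohorts shared 1 model for pairwise comparisons, and competent vs. non-competent oocytes had a model of 2 groups. Standard errors are the absolute log2 fold change over the square root of F, and intervals use them with the test's degrees of freedom. The tests were tested on simulated data with known changes. Loci, exons and exon lengths are from GENCODE M21 (GRCm38), and promoter windows from RefSeq (GRCm38.p6). Figures were drawn in Python 3.11.15.

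The 9 genes and the lists were chosen with earlier results of these data known. The text names all 9 genes, up to 4 called genes per list with the lowest adjusted p, genes a statement on a member turns on, and the 2 most similar genes per called member. Alternatives were DESeq2 1.42.0, limma 3.58.1 on the authors' log2 values, other scalings and filters, other samples, no fold criterion and the replicate block. Reads carry no molecular identifiers. P-values measure the spread between pools.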

Additional observations from a re-analysis of the deposited data

Results flagged for a closer look

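In a group of 6 pools, the gap of an extreme value to the nearest other pool was divided by the range of the group. The value was singled out when this share exceeded Dixon's 95% critical value, and 18 groups were examined. By chance this happens in about 1 in 20 groups drawn from 1 normal distribution. Each group here joins 2 cohorts, so that rate need not apply. Sohlh1 was at 1.54 CPM in PND 40 replicate 3, while the other 5 competent pools ranged from 0 to 0.358 CPM. Sall4 was at 796 CPM in PND 16 large replicate 1, below the other 5 competent pools (861 to 878 CPM).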

How the results depend on the processing

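Counts of the 9 genes called depended on the setting as follows. With no fold criterion, 4 genes each passed in PND 40 vs. PND 13, PND 16 large vs. PND 13 and competent vs. non-competent, in place of 2, 2 and 1, and Pou5f1 was added in PND 40 vs. PND 16 small and Taf4b in PND 16 large vs. PND 16 small. A minimum count of 50, which removes Sohlh1, left 1 call each in PND 16 large vs. PND 13, PND 16 large vs. PND 16 small and PND 40 vs. PND 16 large. Fitting only the cohorts compared left 1, 0 and 1 in these, where 2 were called. Sohlh1 did not pass the filter in these 3 fits and was not tested in them. This setting also removed Tbpl2 from PND 16 large vs. PND 16 small and from PND 40 vs. PND 16 small. Upper quartile scaling, total counts and limma each removed Taf4b from PND 40 vs. PND 16 small, and total counts added it in PND 40 vs. PND 13. Total counts and no filter each left 1 in PND 16 large vs. PND 16 small, as did DESeq2, which gave no adjusted p for Sohlh1 there. DESeq2 gave 1 in PND 16 small vs. PND 13, where edgeR called 0. Alternatives chosen after seeing the data left out pools: without PND 13 replicate 2 and PND 16 small replicate 1, PND 40 vs. PND 16 small had 1 call rather than 3 and PND 16 small vs. PND 13 had 1. Without the 3 pools with the highest granulosa sums, competent vs. non-competent had 2, Taf4b and Tbpl2. PND 16 large vs. PND 13, with 1 PND 13 pool, then had log2 fold changes of -4.21 for Sohlh1, -0.90 for Tbpl2 and -0.60 for Taf4b. Apart from the removal of Sohlh1, the cause was not tested. Leaving out 1 pool at a time gave 1 to 3 calls in PND 40 vs. PND 13 and in PND 40 vs. PND 16 small, 2 in PND 16 large vs. PND 13, 0 to 2 in PND 16 large vs. PND 16 small, 0 to 1 in PND 16 small vs. PND 13, 1 to 2 in PND 40 vs. PND 16 large and 1 in competent vs. non-competent. Of 1499 single-gene values, 42 lost a call, 21 gained one and none of the called values changed direction.

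With the replicate number as a block the counts stayed at 2, 3, 2, 2, 0, 2 and 1. Same-numbered pools did not deviate together (18 correlations across genes, -0.442 to 0.0753, and 3 pools closest to their own number). With 3 pools per cohort these values cannot decide whether same-numbered pools share a batch. Over all genes the block moved PND 16 small vs. PND 13 from 52 to 10 calls. Sohlh1, with 0 to 42 reads per pool, is limited by depth.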
